A study of Homo sapiens with 12 samples.

Results

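The mitochondrial chaperones and proteases described here are 10 nuclear genes, HSPD1, HSPE1, HSPA9, DNAJA3, LONP1, CLPP, CLPX, YME1L1, AFG3L2 and SPG7, taken by symbol from the 43769 genes of the count table. All 10 were among the 15828 genes that passed the filter on low counts. The libraries came from SK-N-DZ, an established MYCN amplified neuroblastoma line that is wild-type for ARID1A, in the form of a clonal line carrying a doxycycline inducible hairpin against ARID1A (shARID1A), a subunit of the SWI/SNF chromatin remodeling complex. The 4 groups of 3 libraries were C (no treatment, genotype labelled WT), D (doxycycline for 4 days, labelled shARID1A), I (IFNγ for 24 h, labelled WT) and DI (doxycycline for 4 days and IFNγ for 24 h, labelled shARID1A). The labels' WT groups are cells without doxycycline, and every group comes from the transduced line selected with puromycin. Doxycycline without the hairpin is not among the groups, so the drug, the hairpin and a lower ARID1A level cannot be told apart. The question asked of these genes was whether their mRNA differed with doxycycline, with IFNγ, or with the combination.

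Most mitochondrial proteins are made in the cytosol, imported unfolded, and folded or degraded inside the organelle. HSPA9 (mortalin, the matrix Hsp70) pulls precursors through the import channel and hands them on, DNAJA3 is a J-domain co-chaperone that stimulates it, and HSPD1 and HSPE1 form the barrel and the lid of the matrix folding chamber. LONP1 and the CLPX-CLPP pair are ATP-driven proteases of the matrix, CLPX unfolding the substrate and CLPP cutting it. YME1L1 (the i-AAA protease, facing the intermembrane space) and AFG3L2 with SPG7 (the m-AAA protease, facing the matrix) sit in the inner membrane and control the quality of respiratory chain subunits. Doxycycline is a tetracycline, a class of antibiotics known to bind bacterial and mitochondrial ribosomes.

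The promoters are shown for HSPA9, whose mRNA passed the edgeR test below without a block for the replicate number. They are also shown for the divergent pair that encodes the folding chamber (HSPD1 and HSPE1), and for the gene richest in a searched motif (LONP1). RefSeq (GRCh38.p14) gave windows of 300 bases, from 250 bases before to 50 after a start site, for 8 of the 10 genes and 11 start sites; CLPP and YME1L1 were not among them. Capitals mark heat shock element letters (TTCNNGAA or GAANNTTC, each its own reverse complement) and the NRF1 core (GCATGCGC, or GCGCATGC on the other strand), and the sequences run 5′ to 3′ on the gene's strand.
HSPA9 chr5:138575352-138575651 minus strand: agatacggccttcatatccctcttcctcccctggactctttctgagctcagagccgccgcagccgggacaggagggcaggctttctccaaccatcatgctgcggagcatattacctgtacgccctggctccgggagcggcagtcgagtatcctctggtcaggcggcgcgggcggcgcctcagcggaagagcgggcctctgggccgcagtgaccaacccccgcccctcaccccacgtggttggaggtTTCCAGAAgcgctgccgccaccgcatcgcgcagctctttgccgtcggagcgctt
HSPD1 chr2:197499791-197500090 minus strand: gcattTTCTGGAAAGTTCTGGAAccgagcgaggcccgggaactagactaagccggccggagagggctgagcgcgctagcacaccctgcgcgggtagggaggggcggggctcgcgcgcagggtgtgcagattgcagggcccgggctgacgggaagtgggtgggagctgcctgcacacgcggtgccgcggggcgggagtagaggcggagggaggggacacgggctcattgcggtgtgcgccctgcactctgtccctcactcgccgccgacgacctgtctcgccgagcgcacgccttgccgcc
HSPE1 chr2:197500129-197500428 plus strand: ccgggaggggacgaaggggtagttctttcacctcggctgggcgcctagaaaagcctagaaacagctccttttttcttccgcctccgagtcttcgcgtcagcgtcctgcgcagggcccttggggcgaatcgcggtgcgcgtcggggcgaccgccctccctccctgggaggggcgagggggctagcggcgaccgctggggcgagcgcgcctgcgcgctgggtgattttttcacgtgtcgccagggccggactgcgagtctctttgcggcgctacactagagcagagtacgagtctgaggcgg
LONP1 chr19:5720403-5720702 minus strand: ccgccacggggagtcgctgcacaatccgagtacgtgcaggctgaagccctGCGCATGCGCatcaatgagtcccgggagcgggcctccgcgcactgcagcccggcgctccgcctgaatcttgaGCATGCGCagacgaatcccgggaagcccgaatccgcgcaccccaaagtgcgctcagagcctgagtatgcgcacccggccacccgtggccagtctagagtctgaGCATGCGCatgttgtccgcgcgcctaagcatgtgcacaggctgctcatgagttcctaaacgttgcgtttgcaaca
HSPA9 held 1 heat shock element match, beginning at position −4 from the start site. HSPD1 held 3 that overlap one another, beginning at −245, −240 and −235. Matches of this kind stood in 2 of the 11 windows of these genes and in 13.5% of all 35116 promoters searched. The NRF1 core was found in the LONP1 window 4 times, an overlapping pair on opposite strands at −200 and −198 and further matches at −128 and −25, and in DNAJA3 once at −68. That core stood in 3.05% of all promoters. The CCAAT box (CCAAT or ATTGG) stood in the windows of CLPX and DNAJA3 and in 34.6% of all promoters, and the CARE letters (TGATGNAA, read by ATF4 family factors) stood in none of the 11 windows and in 3.62% of all. A match is a stretch of letters, and binding was not measured. The start site of the other HSPD1 window lies 105 bases from the HSPE1 start site, on the opposite strand. That window shares 204 bases with the HSPE1 window.

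The libraries held 16469832 to 21790869 counts, and each of the 10 genes had between 582 and 31621 counts in every library, far above a floor of 3 counts (0.135 to 0.187 CPM, counts scaled to a common library size). Together they took 0.200 to 0.337% of all counts. ARID1A, the target of the hairpin, lay at 165 to 197 CPM in C and at 158 to 197 in D, where the log2 fold change was −0.09 (SE 0.11, adjusted p = 0.788), and at 192 to 203 in I and 133 to 151 in DI (−0.44, SE 0.11, adjusted p = 0.115 by edgeR, 0.0111 with the replicate block and 0.0149 by DESeq2). Averaged over IFNγ the ARID1A value was −0.27 (SE 0.08, adjusted p = 0.0606 by edgeR, 0.00858 with the block and 0.0206 by DESeq2). The library labelled D replicate 1 equalled the highest control for ARID1A, so D is used here as the label of a treatment. Mitochondrially encoded mRNAs took 1.30% of the counts of that library, against 3.35 to 4.99% in C. The transcription factor gene DDIT3 was at 4.15 CPM there, within the 3.63 to 5.49 of C. The calls, overlaps and lists with calls for doxycycline are also given without that library further on. The interferon-responsive genes IRF1, GBP1, TAP1 and PSMB9 each passed the test upward with IFNγ. Of the adrenergic neuroblastoma markers 9 of 9 were tested, with a summed level of 4223 to 4873 CPM without doxycycline and 3972 to 4579 with it. The sum is carried by abundant markers, and TH, tyrosine hydroxylase, fell with doxycycline (log2 fold change −3.82, SE 0.94, adjusted p = 0.0349, averaged over IFNγ), although replicate 2 was at 3.13 CPM in C and 7.04 in D. Without the replicate block TH was the marker called, against 7.68% of all genes tested. With the replicate block TH, HAND2 (−0.57) and DBH (−0.88) were called lower and GATA3 (0.25) higher, against 29.0% of all genes tested. DBH in replicate 2 was at 442 CPM in C and 371 in D, and at 430 in I and 417 in DI. Without the library labelled D replicate 1 none of the 9 was called, and 3 were with the block (1 higher, 2 lower). PTPRC, CD3E, LYZ, PECAM1, CDH5, KRT18 and CDH1 failed the filter on low counts, and 1 leukocyte, 1 endothelial and 2 epithelial markers passed it. Those that passed summed to at most 2.89 CPM a list in any library, and the 2 epithelial ones, EPCAM (1.16) and KRT19 (−1.69), were called with the block (adjusted p = 0.0265 and 0.0336), 1 of them by DESeq2 and 0 by edgeR without the block (unadjusted p under 0.05 for both). Fibroblast markers summed to 26.3 to 79.4 CPM without doxycycline and to 25.5 to 63.3 with it, with no call by edgeR (1 of 6 had an unadjusted p under 0.05, DESeq2 called 0, and the block called DCN lower). DCN had 0 to 12 counts in a library, near the floor of 3 counts. The part of these markers in the results was not tested.

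Levels between genes were compared as CPM per kilobase of the principal transcript. In C, HSPD1 was the highest at 465 ± 107 CPM per kilobase (SD, n = 3), above HSPA9 at 98.6 ± 3.69 without overlap. HSPE1 followed at 80.3 ± 30.6, CLPP at 57.2 ± 4.49, LONP1 at 55.2 ± 7.33, SPG7 at 46.5 ± 4.75 and YME1L1 at 43.6 ± 0.325. From HSPA9 down to YME1L1 each neighbour overlapped the next in its 3 control libraries. DNAJA3 (33.0 ± 1.27), AFG3L2 (24.6 ± 1.78) and CLPX (19.3 ± 1.52) came last, each below the one before without overlap. Partners of 1 machine differed in counted level per length, with HSPD1 above HSPE1, CLPP above CLPX and SPG7 above AFG3L2 in C, each without overlap. The counted HSPE1 level depends on how reads shared with HSPD1 or with copies of the gene were handled, which is not known here.

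**Figure D1:**
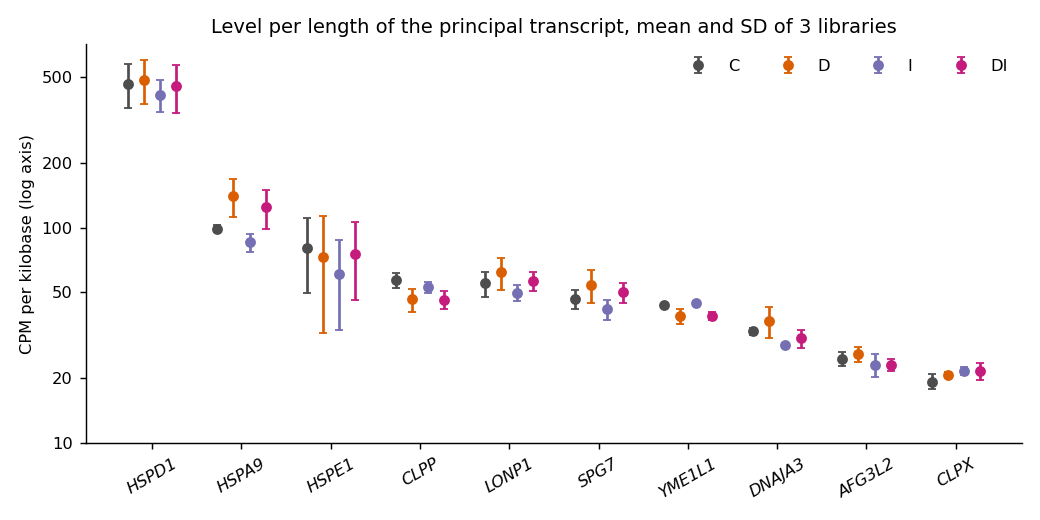
Mean and SD over 3 libraries of CPM per kilobase of the principal transcript (log axis) for each gene, ordered by the level in C, with the groups C, D, I and DI in 4 colours. HSPD1 stands alone at 413 to 485 in the 4 group means, and CLPX and AFG3L2 stand lowest at 19.3 to 25.8.

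The spread of HSPD1 and HSPE1 ran with the replicate number rather than with a treatment. HSPD1 in replicates 1, 2 and 3 was at 1014, 967 and 1444 CPM in C, 1161, 935 and 1478 for D, 964, 872 and 1205 for I, and 1058, 869 and 1424 for DI. HSPE1 was at 64.2, 55.2 and 109 CPM in C, 56.5, 38.8 and 113 for D, 57.9, 31.7 and 83.5 for I, and 80.0, 40.4 and 95.5 for DI. Replicate 3 was the highest and replicate 2 the lowest in each of the 4 groups for both genes, and the highest library of a group exceeded the lowest 1.38 to 1.64 times for HSPD1 and 1.98 to 2.91 times for HSPE1. With that number fitted as a block, replicate 3 exceeded replicate 2 by 0.60 (SE 0.06) on the log2 scale for HSPD1 and by 1.29 (SE 0.13) for HSPE1, with an adjusted p of 0.000118 for the replicate number in each. This test of the replicate number was chosen after the values were seen. It was passed by 5 of the 10 genes and by 44.0% of all genes tested, the others being SPG7 (adjusted p = 0.00387), CLPP (0.0201) and LONP1 (0.0457). SPG7 took the opposite order, with replicate 3 the lowest in each group and 0.33 (SE 0.06) below replicate 2.

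HSPE1 lies inside the annotated span of HSPD1 on the other strand, and whether the counting used strand is not given in the sources used here. HSPE1 had 3.64 to 7.62 counts for every 100 of HSPD1, and the lowest 4 of these values, in I replicate 2, D replicate 2, DI replicate 2 and D replicate 1, were 3.64, 4.14, 4.65 and 4.87. Reads can also be split with processed copies of these genes. The 18 HSPD1 copies in the table held 0.803 to 1.11% of the HSPD1 count and the 26 HSPE1 copies 0.912 to 4.98% of the HSPE1 count. Reads left out of the count because they matched more than 1 place would not show in these shares. HSPA9, YME1L1 and AFG3L2 each had 1 copy with no count, and no copy of the other 5 genes was listed by name.

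**Figure D2:**
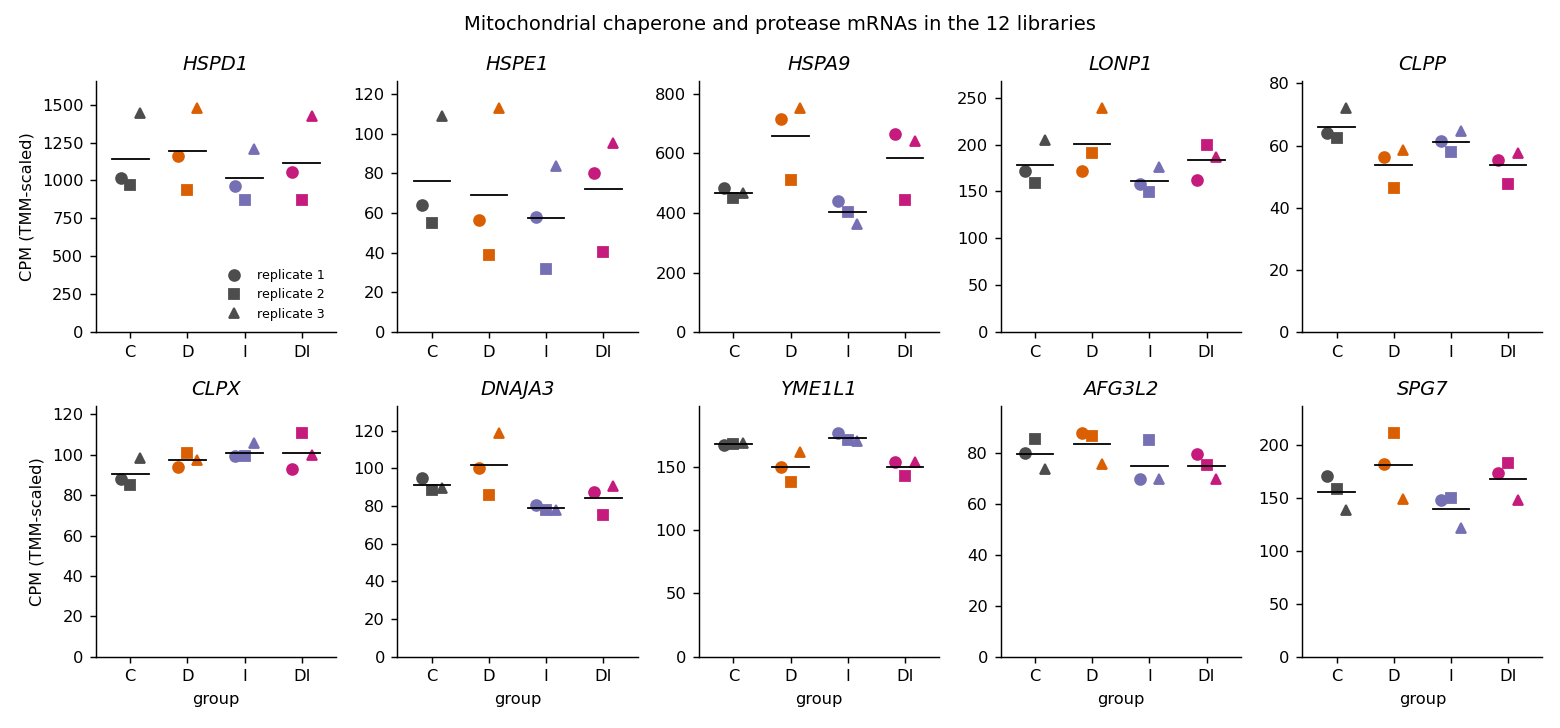
CPM after TMM scaling of each gene in the 12 libraries, by group (C, D, I, DI), with circles, squares and triangles for replicates 1, 2 and 3 and a bar for the group mean (axes start at 0). HSPA9 lies above its own control in D and DI, YME1L1 and CLPP lie below, and triangles are the highest of each group for HSPD1 and HSPE1.

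Of the 10 genes, HSPA9, the matrix Hsp70, passed the doxycycline test averaged over IFNγ by edgeR without the replicate block. With that block HSPA9, CLPP, YME1L1 and SPG7 passed (adjusted p = 0.00265, 0.00432, 0.0143 and 0.00725), against 29.0% of all genes tested. DESeq2 called HSPA9 and YME1L1. For HSPA9, replicates 1, 2 and 3 were at 484, 449 and 466 CPM in C and at 716, 512 and 753 for D. Under IFNγ they were at 441, 405 and 364 for I and at 666, 445 and 643 for DI. Every D library lay above every C library and every DI library above every I library, although DI replicate 2 lay below every C library. Averaged over IFNγ, HSPA9 rose by 0.52 on the log2 scale (SE 0.12, 95% interval 0.25 to 0.79, 1.43-fold, adjusted p = 0.0303), and 1 of the 10 genes against 7.68% of all genes tested passed here. The same gene had 0.50 (SE 0.17, adjusted p = 0.215) in D vs C and 0.54 (SE 0.17, adjusted p = 0.233) in DI vs I, where 0 of the 10 passed, against 1.23% and 0.670% of all genes (2 of the 10 had an unadjusted p under 0.05 in each, against 14.2% and 12.2% of all genes, and DESeq2 called 0 of the 10 and 650 and 471 genes in all). Exact permutation p-values were 0.1 in each contrast, the smallest that 3 against 3 libraries can give.

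Within same-numbered libraries HSPA9 was 1.48, 1.14 and 1.61 times as high in D as in C and 1.51, 1.10 and 1.77 times as high in DI as in I, so replicate 2 showed the smallest increase in each. With the replicate block the adjusted p was 0.0308 for D vs C, 0.0303 for DI vs I and 0.00265 averaged. Without the block, the averaged call was lost when any 1 of 9 of the 12 libraries was left out (C replicates 1, 2 and 3, D replicates 1 and 3, I replicates 2 and 3, DI replicates 1 and 3), with adjusted p from 0.0596 to 0.0742 and a log2 fold change from 0.47 to 0.60 over all 12. Without D replicate 1, the library with control-like ARID1A, it was 0.49 (adjusted p = 0.0742). DNAJA3, the co-chaperone of HSPA9, was at 95.1, 88.5 and 89.8 CPM in C, 100, 85.7 and 119 for D, 80.8, 77.8 and 77.9 for I and 87.2, 75.3 and 90.8 for DI. Its groups overlapped, and the averaged log2 fold change was 0.13 (SE 0.08, 95% interval −0.06 to 0.31, adjusted p = 0.402).

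**Figure D3:**
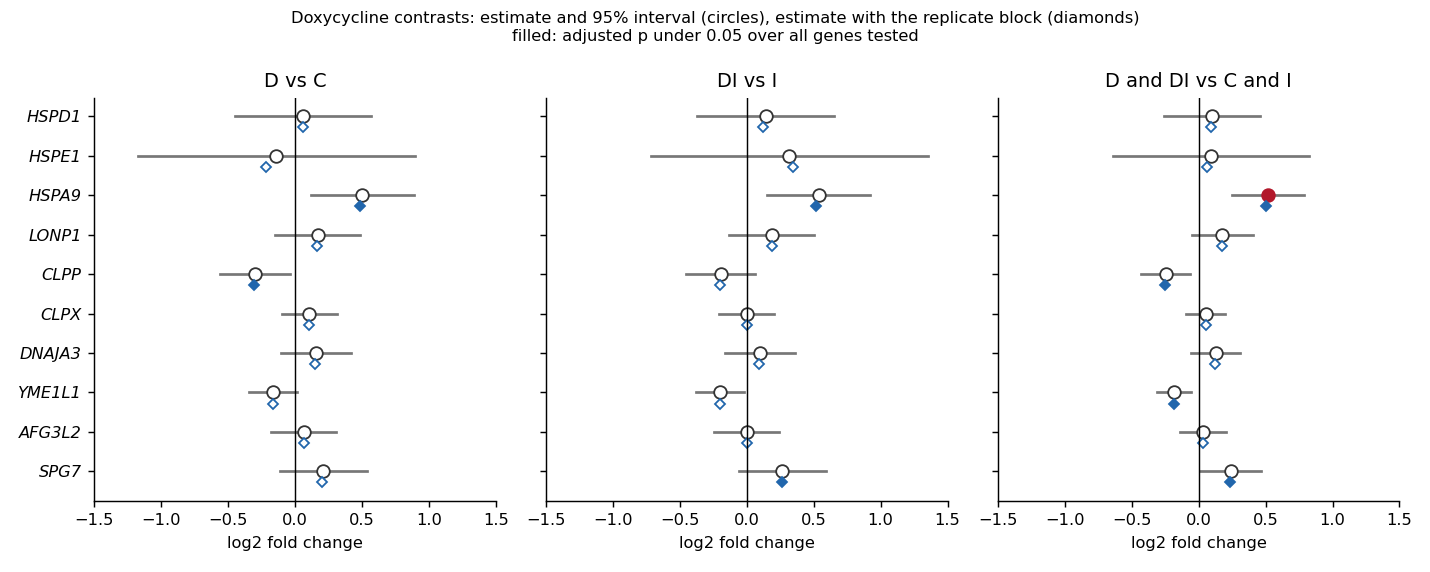
Log2 fold change of each gene with doxycycline without IFNγ (D vs C), under IFNγ (DI vs I) and averaged (D and DI vs C and I), as a circle with its 95% interval and as a diamond for the model with the replicate block; filled symbols have an adjusted p under 0.05 over all genes tested. Without the block HSPA9 is filled in the averaged panel, at 0.52, and with the block CLPP, YME1L1 and SPG7 are filled there as well.

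CLPP, the cutting subunit of the matrix CLPXP protease, was at 64.1, 62.3 and 72.1 CPM in C and 56.4, 46.3 and 58.5 for D. It was at 61.4, 57.8 and 64.8 for I and 55.4, 47.7 and 57.6 for DI. Both doxycycline groups lay wholly below their own controls, and D replicate 3 lay above the lowest I library. The averaged log2 fold change was −0.25 (SE 0.08, 95% interval −0.43 to −0.06, adjusted p = 0.0986), below the threshold only with the replicate block (0.00432; 0.0183 for D vs C, 0.0973 for DI vs I). CLPX, the unfoldase that feeds CLPP, was at 88.0, 84.9 and 98.5 CPM in C, 93.9, 101 and 97.4 for D, 99.2, 99.3 and 106 for I, and 93.1, 111 and 100 for DI. Its averaged log2 fold change was 0.05 (SE 0.07, 95% interval −0.09 to 0.20, adjusted p = 0.687).

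YME1L1, the i-AAA protease, was the most even of the genes in C, at 167, 168 and 169 CPM, with 177, 171 and 170 for I. It was at 150, 138 and 162 for D and 154, 143 and 154 for DI. All 6 doxycycline libraries lay below all 6 others, which held for 1 of the 10 genes and for 5.95% of all genes tested. The averaged log2 fold change was −0.18 (SE 0.06, 95% interval −0.31 to −0.05), with an adjusted p of 0.0848 by edgeR, 0.0288 by DESeq2 and 0.0143 with the replicate block. DESeq2 called 2 of the 10 genes in this contrast, HSPA9 and YME1L1, and 12.8% of all genes it tested.

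SPG7 and AFG3L2 are the m-AAA subunits. SPG7 was at 171, 159 and 139 CPM in C, 182, 212 and 149 for D, 148, 150 and 122 for I and 174, 183 and 148 for DI, so its groups overlapped. In same-numbered libraries it was 1.07, 1.33 and 1.07 times as high in D as in C and 1.18, 1.22 and 1.21 times as high in DI as in I. The averaged log2 fold change was 0.24 (SE 0.10, 95% interval 0.01 to 0.47), with an adjusted p of 0.194 and, with the replicate block, 0.00725 (0.0859 for D vs C, 0.0435 for DI vs I). AFG3L2 was at 80.2, 85.5 and 74.0 CPM in C, 88.2, 86.9 and 75.9 for D, 69.9, 85.4 and 70.0 for I and 79.8, 75.4 and 69.9 for DI. Its averaged value was 0.03 (SE 0.08, 95% interval −0.14 to 0.21, adjusted p = 0.85), and the SPG7 value was not tested against it.

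With the replicate block, 2 of the 10 genes passed in D vs C (HSPA9 and CLPP), 2 in DI vs I (HSPA9 and SPG7) and 4 averaged over IFNγ (HSPA9, CLPP, YME1L1 and SPG7), against 13.9%, 10.5% and 29.0% of all genes tested. All 6 same-numbered ratios (3 of D to C, 3 of DI to I) fell on 1 side of 1 for 5 of the 10 genes, HSPA9, LONP1 and SPG7 above and CLPP and YME1L1 below, and for 27.9% of all genes. For LONP1 the D to C ratio of replicate 1 was 1.00, above 1 only beyond the digits shown. Groups did not overlap for 3 of the 10 genes in D vs C and for 3 in DI vs I, HSPA9, CLPP and YME1L1 in each, against 19.2% and 16.6% of all genes. Without D replicate 1 the groups of D vs C did not overlap for the same 3 genes (25.7% of all genes), and the 5 ratios left fell on 1 side of 1 for the same 5 genes (32.2% of all genes). The block without that library was chosen after the values were seen, and it called CLPP in D vs C (−0.34, adjusted p = 0.045), where HSPA9 had 0.48 (adjusted p = 0.1), HSPA9 in DI vs I (adjusted p = 0.0477), where SPG7 had 0.0551, and HSPA9, CLPP, YME1L1 and SPG7 averaged (adjusted p = 0.00948, 0.00858, 0.0365 and 0.0131). Without the block and that library, 0 of the 10 were called. Of the 4 called with the block in all 12 libraries, 2 were higher and 2 lower, and over all 10 the log2 fold change had a median of 0.10 averaged over IFNγ beside −0.0019 for all genes tested.

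**Figure D4:**
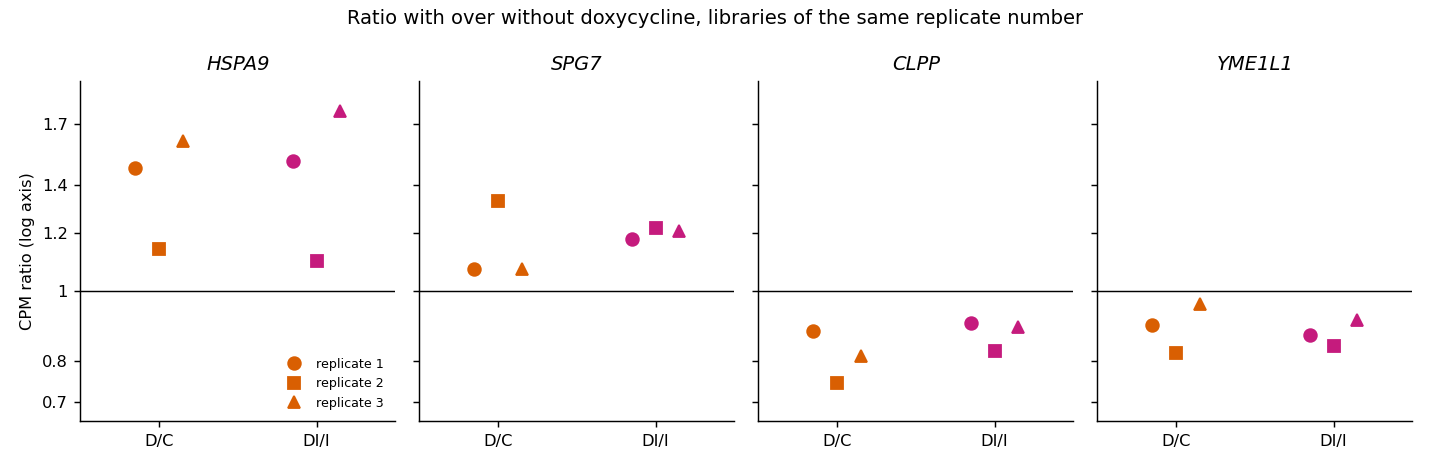
CPM ratio of the library with doxycycline to the library without it of the same replicate number (log axis), without IFNγ (D/C) and with it (DI/I), for HSPA9, SPG7, CLPP and YME1L1. HSPA9 and SPG7 lie above 1 in all 6 ratios (1.10 to 1.77 and 1.07 to 1.33), and CLPP and YME1L1 lie below 1 in all 6 (0.744 to 0.903 and 0.820 to 0.959).

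The folding chamber and LONP1 did not pass the test for doxycycline in any of these models. For HSPD1 the averaged log2 fold change was 0.10 (SE 0.16, 95% interval −0.26 to 0.46, adjusted p = 0.769). For HSPE1 it was 0.09 (SE 0.33, 95% interval −0.64 to 0.82, adjusted p = 0.91). With the replicate block, which takes out the spread between replicate numbers, the intervals were −0.02 to 0.20 for HSPD1 and −0.17 to 0.29 for HSPE1, and neither was called. LONP1, the matrix protease, was at 172, 159 and 205 CPM in C, 172, 191 and 239 for D, 158, 149 and 176 for I and 162, 199 and 187 for DI. Its groups overlapped, and the averaged value was 0.18 (SE 0.10, 95% interval −0.05 to 0.40, adjusted p = 0.331). With the replicate block the LONP1 interval was 0.02 to 0.33, which leaves out 0, but LONP1 was not called (unadjusted p = 0.0271, adjusted p = 0.0785). Each p-value measures the spread between these libraries, which may be technical, since the labels do not say that replicates are separate cultures, and in bulk RNA fewer cells and less RNA per cell cannot be told apart.

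IFNγ changed none of the 10 genes past the threshold. In I vs C the log2 fold changes ran from −0.40 (HSPE1, SE 0.47) to 0.17 (CLPX, SE 0.09), 8 of the 10 below 0, with adjusted p from 0.816 to 1 by edgeR and 0 genes called, by DESeq2 as well, against 2.21% of all genes tested. The count of these genes with an unadjusted p under 0.05 was 0, and with the replicate block it was 3 of the 10 against 18.1% of all genes, namely HSPD1, HSPE1 and DNAJA3. Their adjusted p-values with the block were 0.26, 0.118 and 0.253 by edgeR. All 3 same-numbered ratios of I to C fell on 1 side of 1 for 10 of the 10 genes, below 1 for 8 and above 1 for CLPX and YME1L1, against 47.1% of all genes. The ratios ran from 0.575 (HSPE1, replicate 2) to 1.17 (CLPX, replicate 2). Some lay so close to 1 that their side is not informative, among them YME1L1 in replicates 2 and 3 (1.01 and 1.00) and AFG3L2 in replicate 2 (0.998). Groups did not overlap for 4 of the 10 genes, HSPA9 and DNAJA3 lower in I and CLPX and YME1L1 higher, against 15.1% of all genes. HSPA9 had −0.21 (SE 0.17), DNAJA3 −0.21 (SE 0.12), CLPX 0.17 (SE 0.09) and YME1L1 0.04 (SE 0.08), and the direction for YME1L1 flipped to −0.0048 when only library size was used for scaling.

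In DI vs D, the IFNγ comparison under doxycycline, values ran from −0.27 (DNAJA3, SE 0.12) to 0.06 (CLPX, SE 0.09), with adjusted p from 0.779 to 1 by edgeR. Of the 10, 0 genes were called by edgeR or DESeq2. DNAJA3 was the 1 gene with an unadjusted p under 0.05 by edgeR, against 6.24% of all genes. Same-numbered ratios of DI to D fell on 1 side of 1 in all 3 pairs for 5 of the 10 genes, HSPD1, HSPA9, DNAJA3, AFG3L2 and SPG7, each below 1, against 42.1% of all genes. Of all genes 1.72% were called, and the groups overlapped for all 10 genes here against 9.55% of all genes that did not. The replicate block called none of the 10 in I vs C or DI vs D, against 6.02% and 4.46% of all genes. DI vs D shares its libraries with D vs C and DI vs I, and I vs C shares C with D vs C, so these values are not independent of the doxycycline contrasts.

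The test of whether the IFNγ difference itself changed with doxycycline (the value of DI vs D minus that of I vs C) called 0 of the 10 genes and 0% of all genes tested, with or without the replicate block, and DESeq2 called 1 gene, none of the 10. Without the block no unadjusted p of the 10 was under 0.05, against 0.625% of all genes. With it HSPE1 had 0.56 (SE 0.21, unadjusted p = 0.0211, adjusted p = 1 by edgeR), against 2.36% of all genes with an unadjusted p under 0.05. The 95% interval of this difference on the log2 scale was −0.51 to 0.57 for HSPA9, −0.26 to 0.47 for CLPP, −0.29 to 0.22 for YME1L1 and −1.01 to 1.92 for HSPE1.

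Related genes were read beside the 10 for doxycycline averaged over IFNγ. Of all genes tested in this contrast, 23.4% had an unadjusted p under 0.05 and 7.68% were called by edgeR. The replicate block called 29.0%, and DESeq2 called 12.8% of the genes it tested. The counts for each list below are to be read beside these shares. Of 11 other mitochondrial chaperones and Hsp70 partners tested, edgeR called 0 (4 had an unadjusted p under 0.05, DESeq2 called 3, and the replicate block 2 higher and 2 lower), with a median log2 fold change of −0.0048. TIMM44, which tethers HSPA9 to the import channel, averaged 66 ± 3.87 CPM for C, 85.6 ± 16.8 for D, 55.8 ± 2.31 for I and 72.6 ± 16.5 for DI (SD, n = 3). TRAP1, the matrix Hsp90, was at 266 ± 11.1, 237 ± 29.9, 241 ± 7.30 and 211 ± 23.3 in the same order. The block called PAM16 (0.97) and TIMM44 (0.38) higher and CLPB (−0.33) and TRAP1 (−0.18) lower. PAM16 was sparsely counted, with 6 to 44 counts in a library (adjusted p = 0.0978 by edgeR without the block). Of 13 other mitochondrial proteases and presequence peptidases, 2 fell and 0 rose (4 and 2 with the block), with a median of −0.06. The 2 that fell were PITRM1, the presequence-degrading peptidase (−0.35), and PMPCA, a subunit of the presequence peptidase (−0.28). Of 15 partners and substrates of the AAA+ proteases, edgeR called 0 (2 had an unadjusted p under 0.05, DESeq2 called 1, and the block 1 higher and 1 lower), with a median of −0.03. SMDT1, a subunit of the calcium uniporter whose unassembled form is degraded by the m-AAA protease, had the largest negative value of this list at −0.60.

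Chaperones of other compartments showed few calls. Of 21 cytosolic chaperones edgeR called 0 (4 had an unadjusted p under 0.05, DESeq2 called 0, and the block 1 higher and 3 lower), with a median of −0.03. Those with the smallest p were DNAJA2 (−0.14), HSPA4 (0.32), HSPB1 (−0.32) and HSPH1, the Hsp110 exchange factor (0.36). Among these the block called DNAJA2 lower and HSPA4 higher. Of 11 chaperones of the endoplasmic reticulum 1 fell and 0 rose (3 and 0 with the block), with a median of −0.11. The 1 that fell was DNAJB9, a co-chaperone of BiP, with −0.98.

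Stress signalling genes and mitochondrially encoded mRNAs had larger list medians than the 10 genes. Of 7 mitochondrial stress signalling factors 3 rose and 0 fell, ATF4 (0.55), DDIT3 (1.42) and CEBPB (1.52), each a transcription factor, with a list median of 0.55. ATF4 was at 338, 351 and 253 CPM in C, 391, 435 and 515 for D, 258, 320 and 205 for I and 365, 404 and 409 for DI. Of 14 ATF4 effectors 6 rose and 0 fell (8 and 0 with the block), with a median of 0.82, among them CHAC1, a glutathione-degrading enzyme (3.82), SESN2 (1.91), ASNS, asparagine synthetase (1.73), and ALDH1L2, a mitochondrial folate enzyme (1.65). CHAC1 was at 17.4, 10 and 69.1 CPM in D and at 18.5, 9.49 and 43.0 for DI, with replicate 2 the lowest in each. SESN2 was also lowest in replicate 2 of each, whereas ATF4 and DDIT3 were lowest in replicate 1 of each. ASNS was lowest in replicate 1 of D (3.24, 6.11 and 9.79 CPM) and in replicate 2 of DI (5.03, 3.85 and 7.97), so the order differed between genes. These are levels, not ratios of same-numbered libraries. Of 13 mitochondrially encoded mRNAs 10 fell and 0 rose (13 and 0 with the block), with a median of −1.64. These mRNAs took 2.90 to 4.99% of counts without doxycycline and 0.768 to 2.58% with it. Without D replicate 1, 2 of the 7 stress factors rose (ATF4 and DDIT3), 6 of the ATF4 effectors rose and 10 of the mitochondrially encoded mRNAs fell, with medians of 0.59, 0.91 and −1.73, PITRM1 but not PMPCA was called among the proteases, and DNAJB9 was still called lower. The part of either group of genes in the HSPA9 result was not tested.

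**Figure D5:**
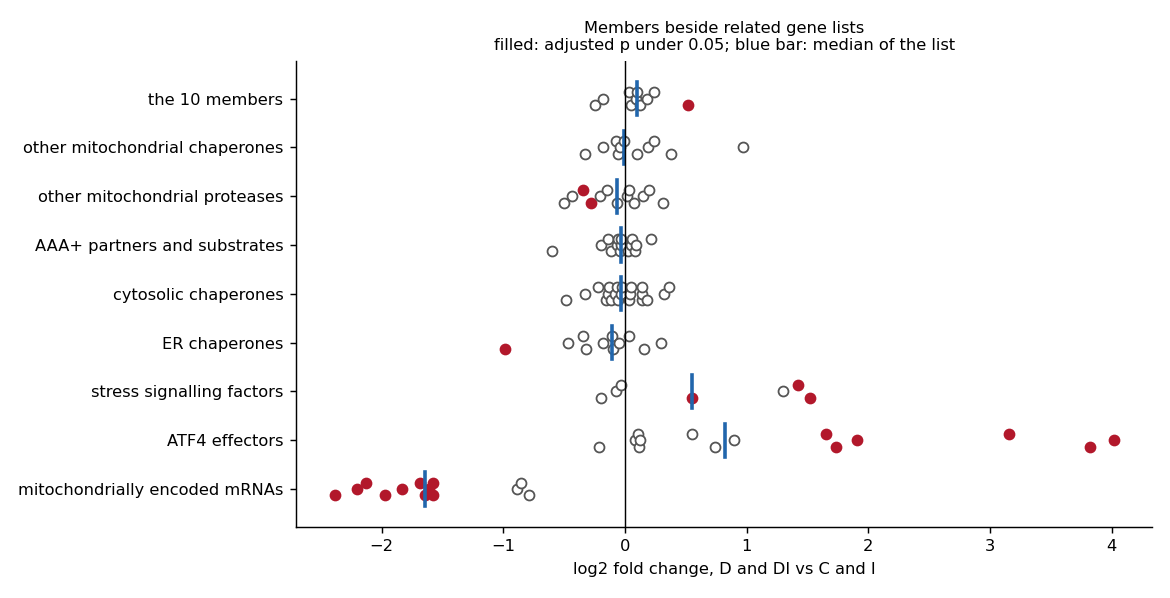
Log2 fold change with doxycycline averaged over IFNγ (D and DI vs C and I) for the 10 genes and for the genes of 8 related lists, filled where the adjusted p was under 0.05, with the list median as a blue bar. The medians of the chaperone and protease lists lie between −0.11 and 0.10, while those of the stress factors (0.55), the ATF4 effectors (0.82) and the mitochondrially encoded mRNAs (−1.64) lie apart from 0.

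Across the 12 libraries the genes did not follow 1 course. Pearson's r of log2 CPM with the mean of the other 9 standardised genes was 0.82 for DNAJA3, 0.79 for HSPD1, 0.66 for HSPE1, 0.54 for HSPA9 and 0.53 for LONP1, but 0.08 for CLPP, −0.23 for YME1L1, −0.37 for AFG3L2, −0.41 for SPG7 and −0.42 for CLPX. The points share treatment, replicate number and library, so r describes these libraries and carries no test. The 5 other genes closest to the mean of the 10, among 13951 with a mean of at least 1 CPM, were SSR3 (r = 0.95), RFXAP (0.95), SLC39A3 (0.95), KNOP1 (0.94) and DCAF17 (0.94), and none of the 5 passed the averaged doxycycline test (adjusted p from 0.238 to 0.535).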

How the data were processed

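RNA from 12 libraries (paired-end, 150 bases) was counted per gene by the authors, and the deposited counts are raw whole numbers. The aligner, the counter and the use of strand are not given in the sources used here. The submitters' processing notes name DESeq2, and the authors' own comparison tables (log2 fold changes, p-values) were not used, nor were 18 per-library columns in them whose names the labels do not explain. Groups came from the sample titles.

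Counts were filtered with filterByExpr (minimum count 10), scaled by TMM and fitted in 1 model of the 4 group means with the quasi-likelihood test of edgeR 4.0.16 (limma 3.58.1, R 4.3.3), and p-values were adjusted by Benjamini-Hochberg over 15828 genes at a threshold of 0.05. CPM divides counts by the TMM-scaled library size. Permutation tests used log2 CPM with a prior count of 2 and were two-sided. Intervals are 95%. The code was tested on simulated data. After group means were removed, same-numbered libraries of other groups correlated at 0.338 to 0.804 in 18 pairs (other numbers −0.628 to 0.143 in 36), so the numbers pair the libraries and the replicate block is given where it changes a call. Alternatives were DESeq2 1.42.0, other scalings and filters, fits on the 2 groups alone, and leaving out libraries. The genes, lists, motifs and naming rules (all 10 genes, at most 4 genes a list by smallest p for doxycycline averaged, and the 5 most alike genes) were chosen with earlier results of these data known. Gene positions and lengths are from GENCODE 29 (GRCh38), promoters from RefSeq. Reads carry no molecular identifiers, so floors cover counting error only. Some genes of the interferon and cell type checks are not reported here.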

Additional observations from a re-analysis of the deposited data

How the results depend on the processing

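The number of genes called moved more than the estimates did. In D vs C (194 genes) DESeq2 gave 650, no filter 119, the replicate block 2200, the 2 groups alone 16, and leaving out libraries 0 to 195. In DI vs I (106) these were 471 for DESeq2, 1658 for the block, 0 for the 2 groups alone and 0 to 96. In I vs C (350) they were 529, 953 for the block, and 127 to 364, and in DI vs D (273) 706 for the block and 98 to 279. For doxycycline averaged (1216) DESeq2 gave 1996, no filter 752, the block 4593 and leaving out libraries 71 to 1362, and DESeq2 called 1 gene in the interaction. Without D replicate 1 and with the block, a setting chosen after seeing the data, 939, 1403 and 3624 genes and 1, 1 and 4 of the 10 were called in D vs C, DI vs I and averaged, and AFG3L2 in DI vs I became 0.0023. Of the 10 genes the replicate block (paired) called 2 in D vs C, 2 in DI vs I and 4 averaged, DESeq2 called 2 averaged, and leaving out libraries left 0 or 1 averaged (without every replicate 1 or every replicate 3 HSPA9 was not called, adjusted p = 0.318 and 0.266). The block changed no other call of the 10. Scaling by library size alone moved the median of all genes to 0.09 averaged and the calls from 579 higher and 637 lower to 1250 and 431, and it ended no call of the 10.

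Of 60 estimates (10 genes, 6 contrasts) 15 of 400 values under the 7 other settings had the other sign, all from values near 0. In DI vs I CLPX became 0.0001 (DESeq2 size factors), 0.0926 (library size), 0.0036 (no filter), 0.0101 (mean of at least 1 CPM) and 0.0114 (2 groups alone), and AFG3L2 0.0911 (library size), 0.0033 (no filter), 0.0101 (mean of at least 1 CPM), 0.0021 (block) and 0.0112 (2 groups alone). YME1L1 became −0.0048 in I vs C and −0.0349 in DI vs D by library size, and CLPP in DI vs D 0.0063 (no filter), 0.0103 (mean of at least 1 CPM) and 0.0095 (2 groups alone). Leaving out libraries turned 80 of 900 values, with ranges in D vs C of HSPD1 −0.12 to 0.26, HSPE1 −0.68 to 0.21; in DI vs I of HSPD1 −0.0754 to 0.30, CLPX −0.0803 to 0.0588, AFG3L2 −0.0983 to 0.10; in I vs C of HSPD1 −0.33 to 0.033; in DI vs D of HSPD1 −0.31 to 0.0921, HSPE1 −0.23 to 0.60, LONP1 −0.23 to 0.009, CLPP −0.10 to 0.073, CLPX −0.0081 to 0.12, YME1L1 −0.0533 to 0.0639, SPG7 −0.23 to 0.024; averaged of HSPD1 −0.0075 to 0.20, HSPE1 −0.18 to 0.27, CLPX −0.0286 to 0.11, AFG3L2 −0.0353 to 0.0898; and in the interaction of HSPD1 −0.14 to 0.26, HSPA9 −0.12 to 0.20, LONP1 −0.0954 to 0.16, DNAJA3 −0.16 to 0.0714, YME1L1 −0.0902 to 0.0269, AFG3L2 −0.13 to 0.0349, SPG7 −0.0708 to 0.18. HSPA9, CLPP, YME1L1, SPG7, LONP1 and DNAJA3 kept their direction in every setting of the 3 doxycycline contrasts. The cause was not tested.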
